A study of Mus musculus with 12 samples.

Results

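The expressed solute carrier transporters are the 165 protein-coding genes whose symbol has the form of a solute carrier (Slc, a family number, the letter a and a member number) and whose raw read counts, summed over all 12 libraries, reached 600. They were 165 of 342 genes of that name form and of 52636 genes counted. The libraries were made from RNA of mouse lung Cx3cr1+ macrophages, cells that carry the fractalkine receptor, in a study of bleomycin-induced lung fibrosis with and without deletion of Il4ra, the gene of the interleukin-4 receptor alpha chain. There were 3 groups of 4 libraries, namely saline-treated IL4Ra WT (saline WT), bleomycin-treated IL4Ra WT (bleomycin WT) and bleomycin-treated IL4Ra KO (bleomycin KO). No saline group carried the deletion. The labels used here give no strain, age, dose, day, driver of the deletion or number of animals behind a library, so p-values rest on how far the libraries of a group lie apart, and that may be technical variation.

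Solute carriers are membrane proteins that move small molecules by facilitated diffusion, by exchange, or by coupling to a gradient of sodium, protons or chloride. In macrophages they feed amino acids, glucose and lipids into metabolism, empty the phagolysosome of digested amino acids, nucleosides, haem and iron, and keep zinc and copper in range. Some work only with a partner protein: the amino acid exchangers of the Slc7 family sit beside the heavy chain Slc3a2, and the lactate carriers of the Slc16 family need basigin (Bsg) or embigin (Emb) to reach the surface. Mitochondrial carriers of the Slc25 family exchange ADP, phosphate and metabolites across the inner mitochondrial membrane.

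By substrate, the 165 genes comprised 23 carriers of amino acids, 6 of carboxylates, 4 of creatine, taurine, inositol and serotonin, 3 of fatty acids, 23 of inorganic ions, 27 of metals and haem, 31 mitochondrial carriers, 5 of nucleosides or nucleotides, 5 of nucleotide sugars, 8 of organic anions, cations or carnitine, 3 of peptides, 11 of sugars or sugar phosphates, 10 of vitamins, choline or acetyl-CoA, and 2 others. The last 4 bear the name without being transporters: Slc9a3r1, Slc9a3r2, Slc4a1ap and Slc7a6os. The summed count chose the genes, so it is described without a test. Just outside stood Slc2a9 with 517 counts, Slc22a21 with 546 and Slc25a35 with 593. Just inside stood Slc7a4 with 603, Slc25a40 with 646 and Slc39a7 with 651. Slc39a7 is uncertain, because 74.5% of its 50-base stretches also occur in Gm20427, whose exons overlap its own by 1989 bases, so its place above 600 depends on how shared reads were counted. The 8 bleomycin libraries held 83.8% of all counts, so the threshold leaned towards genes present after bleomycin, and 85 of the 165 genes had 600 counts in the saline libraries alone. For this reason no count or median over the 165 genes, or over a substrate class of them, is offered as support for a rise after bleomycin. All 165 passed the filter on low counts.

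Depth ran from 60598 counts in saline WT 2 to 18051113 in bleomycin WT 2. Values below are depth-scaled counts (CPM) after scaling by the trimmed mean of M-values (TMM). In saline WT 2 a gene with 3 counts already reads 32.4 CPM and only 43 of the 165 genes had a count, so a 0 there says little. Bleomycin WT 4 stood apart, with a TMM factor of 0.579 against 0.898 to 1.54 in the other 11 libraries. For each comparison the counts of genes called are therefore given for all 12 libraries and for the 10 without saline WT 2 and bleomycin WT 4. Fits of single genes are of 12 libraries unless the 10 are named. Il4ra itself read 32.4 to 302 CPM in saline WT, 138 to 626 in bleomycin WT, with 235 to 473 in bleomycin KO: whole-gene counts, exons outside a deletion included, did not separate the libraries labelled KO. Markers of other cells were present. The neutrophil list (8 genes) summed to 2677, 3113, 28882 and 18209 CPM in saline WT 1 to 4 and to 561 to 1943 in the bleomycin libraries. The epithelial list (9 genes) summed to 1475 to 2347 CPM in saline WT and 175 to 874 after bleomycin, and the endothelial list (9 genes) to 216 to 431 in saline WT, 82.3 to 148 in bleomycin WT 1 to 3, 708 in bleomycin WT 4 and 77.7 to 147 in bleomycin KO. Cx3cr1, the marker the cells were taken by, read 98.1 to 940 CPM in saline WT, 53.5 to 113 in bleomycin WT 1 to 3, 7.46 in bleomycin WT 4 and 86.2 to 121 in bleomycin KO. Itgam, an integrin gene of myeloid cells, read at most 3.08 CPM anywhere. The macrophage list (11 genes), which holds both, summed to 15533 to 36645, 33208 to 54234 and 51060 to 71370 in the 3 groups. After bleomycin in WT, 8 of its 11 genes had a positive log2 fold change in the 12-library fit. At an unadjusted p under 0.05 by edgeR, 5 were higher and 1 lower (all genes tested: 8.47% higher and 6.19% lower). The alveolar macrophage list (7 genes) had 7 negative log2 fold changes after bleomycin in WT. It summed to 1818, 1351, 4122 and 2502 CPM in saline WT 1 to 4. Its sums were 526 to 2256 in bleomycin WT and 983 to 1635 in the KO libraries. The fibroblast list (6 genes) summed to 43.3 to 143 CPM in saline WT, 197 to 313 in bleomycin WT and 95.7 to 479 in the KO libraries. The part of these cells in the results below was not tested. In bulk RNA, fewer cells of a type and less RNA per cell cannot be told apart.

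Levels are compared between genes as the median CPM of the 12 libraries per kilobase of exon. The median gene of the 165 stood at 7.97 CPM per kb, 12 genes exceeded 50 and 53 were under 5. Slc3a2, the heavy chain of amino acid exchangers, was the most abundant at 172 CPM per kb. It was followed by Slc25a5, an ADP/ATP carrier, at 128, by Slc11a1, the phagosomal iron and manganese exporter of macrophages, at 116, and by Slc25a3, the mitochondrial phosphate carrier, at 111. Slc25a5 is uncertain, because 33.8% of its 50-base stretches also occur in 9 pseudogene copies. The lowest was Slc1a2, a glutamate transporter best known from astrocytes, at 0.410 CPM per kb. The carriers that the later comparisons turn on were not abundant: Slc36a2 stood at 18.1 CPM per kb and rank 38, Slc27a1 at 21.7 and rank 34, and Slc6a8 at 2.33 and rank 139.

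**Figure D1:**
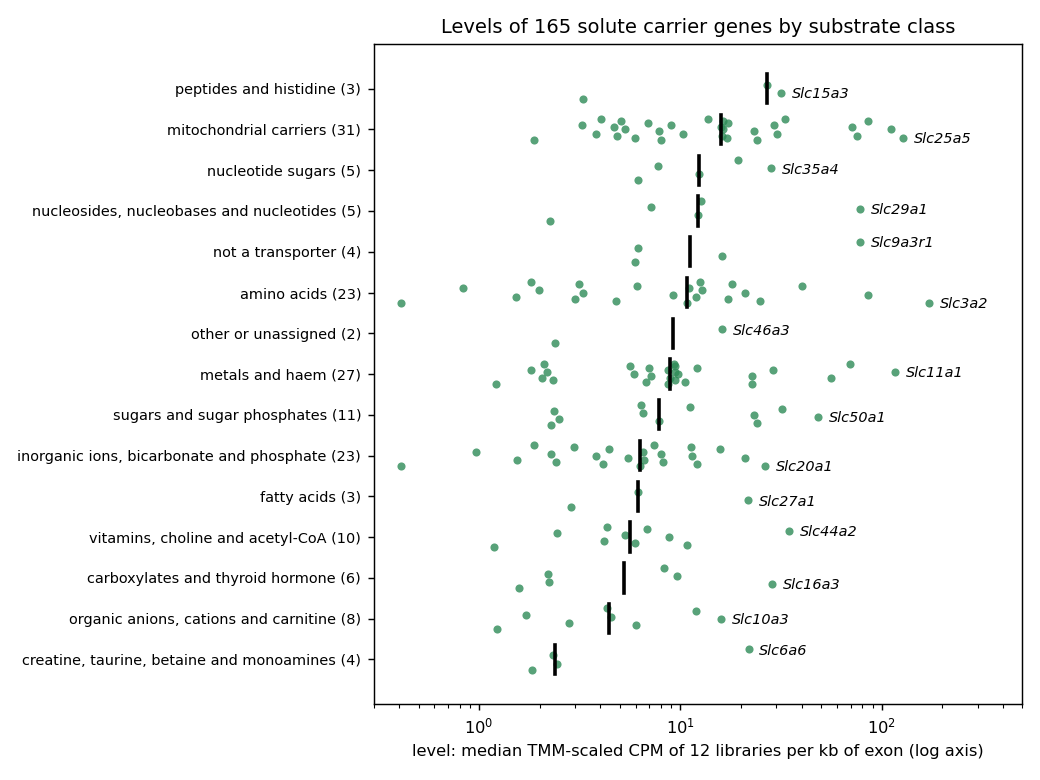
Level of each of the 165 genes (points), as median TMM-scaled CPM of 12 libraries per kilobase of exon on a log axis, by substrate class (number of genes in brackets; black bars are class medians; the top gene of each class is named). Slc3a2 at 172, Slc25a5 at 128 and Slc11a1 at 116 CPM per kb lead their classes, and the lowest gene, Slc1a2, stands at 0.410.

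With the 2 libraries above left out, the median coefficient of variation of the 165 genes was 30.3% over the 4 bleomycin KO libraries, 29.1% over the 3 remaining bleomycin WT libraries and 59.4% over the 3 remaining saline WT libraries. Over all 16679 genes tested it was 34.2%, 31.5% and 64.5%. The steadiest in bleomycin KO was Slc25a3, with 203 to 224 CPM and a coefficient of variation of 4.38%. The most variable was Slc34a2, a phosphate transporter of alveolar type II epithelium, with 17.4, 0, 1.93 and 0.342 CPM and a coefficient of 170%.

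The first comparison, bleomycin WT against saline WT, asks which carriers differ in lung macrophages after bleomycin in mice with an intact receptor. In the fit of 12 libraries, 1 of the 165 genes passed edgeR's quasi-likelihood test at an adjusted p under 0.05 (0.606%), where 0.0240% of all genes tested did. That gene was Slc6a8. Leaving out bleomycin WT 4 alone gave 2 calls, Slc6a8 and Slc36a2, and leaving out any of the other 11 libraries gave 0. Without the 2 libraries, 3 passed (1.82%, against 0.431% of all genes tested): Slc6a8, Slc36a2 and Slc27a1, all higher after bleomycin. Slc6a8 and Slc36a2 were picked beforehand for this difference, so their part in these counts is a description. At an unadjusted p under 0.05 the 12-library fit had 22 genes higher (13.3%, against 8.47% of all genes) and 6 lower (3.64%, against 6.19%), and the 10-library fit 27 higher (16.4%, against 6.49%) and 13 lower (7.88%, against 7.56%). In this comparison other tools called other sets: DESeq2 called 10 carriers, where it called 2.99% of all genes, and limma-voom with quality weights 6 and the edgeR fit without a low-count filter 12, where each called 1.91% of all genes. Here and below, the share without the filter is of 40764 genes, low-count ones included, and that of DESeq2 and limma-voom is of 16679. The 6 of limma-voom did not include Slc6a8 (log2 fold change 5.19, adjusted p = 0.122). Where 1 of these is said below to call a gene, it is read against that share. The median log2 fold change was 0.53 over the 165 genes and 0.08 over all genes tested, and 0.35 against -0.14 in the 10 libraries. Scaling by DESeq2's size factors in place of TMM moved the all-gene median by -0.18, turned the sign of 5 of the 165 genes and left none called.

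**Figure D2:**
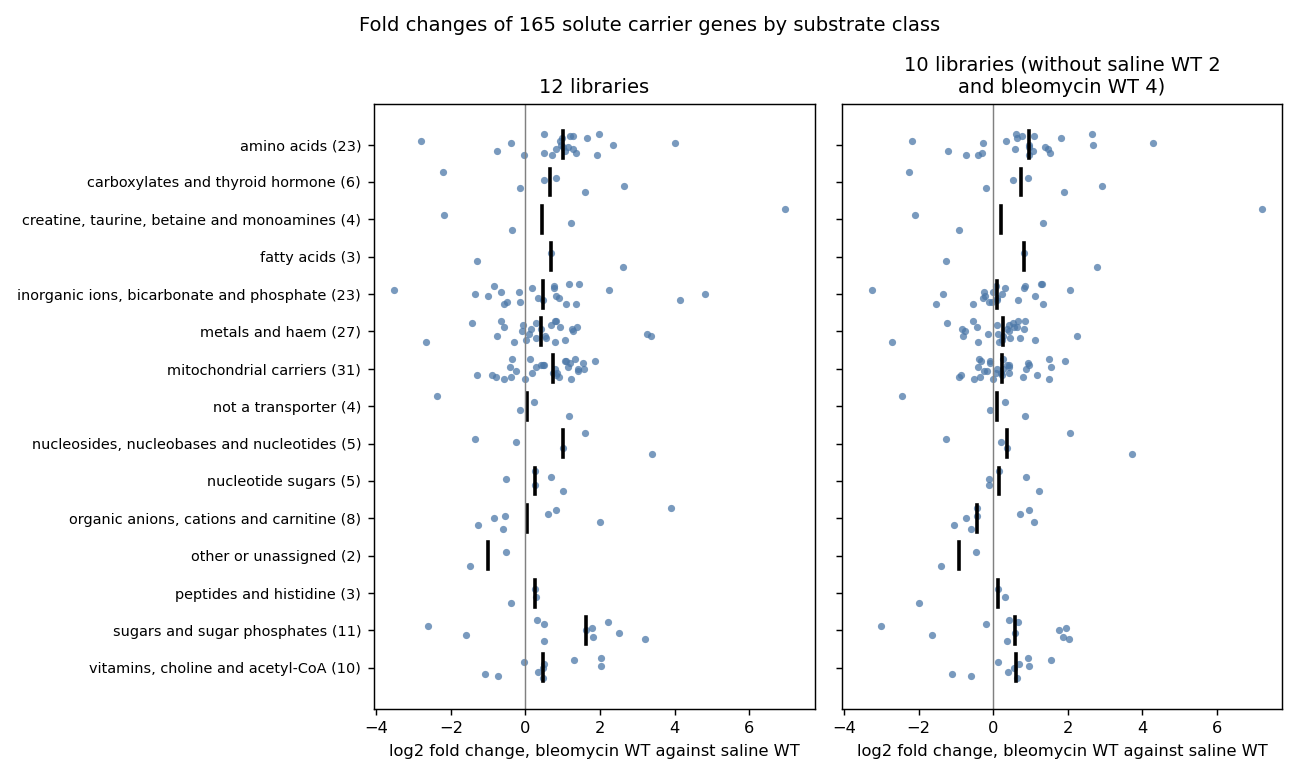
Log2 fold change of each of the 165 genes (points), bleomycin WT against saline WT, by substrate class, from the fit of 12 libraries (left) and of 10 (right). Black bars are class medians; the point near 7 in both panels is Slc6a8, and the points above 4 among inorganic ions on the left (Slc20a1 at 4.14 and Slc24a5 at 4.81) lie at 0.09 and 0.23 on the right.

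Slc6a8 is the sodium- and chloride-dependent importer of creatine, the substrate of the creatine kinase energy buffer (chrX:73673150-73682502 in GRCm38, plus strand, as the deposited annotation gives it). It was near absent in saline WT, with 0, 0, 0.103 and 0.145 CPM in libraries 1 to 4, which is 2 reads in all. In bleomycin WT it read 8.29, 15.9, 23.3 and 4.27 CPM, from 651 reads, and in bleomycin KO 11.1, 26.2, 10.2 and 18.5 CPM, from 867 reads. The bleomycin libraries lay above all saline libraries in both genotypes. The mean was 0.0618 ± 0.0735 CPM in saline WT, 12.9 ± 8.42 in bleomycin WT, with 16.5 ± 7.45 in bleomycin KO (SD, n = 4 each). Against 2 pooled saline reads the depth-scaled ratio was 154 for bleomycin WT (95% counting interval 42.4 to 1273) and 171 for bleomycin KO (47.3 to 1417); the intervals cover counting error only. No 50-base stretch of Slc6a8 occurs in another annotated transcript. The comparison that did not choose this gene, bleomycin KO against bleomycin WT, gave a log2 fold change of 0.35 (95% interval -1.16 to 1.85, unadjusted p = 0.63, edgeR), so a 2-fold difference in either direction lay within the interval.

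No other gene of the creatine pathway was called. Of the 8 genes of the creatine list, 5 were tested and Slc6a8 alone was called. Gatm, which makes the creatine precursor guanidinoacetate, read 262, 162, 65.8 and 146 CPM in saline WT and 184, 167, 213 and 236 in bleomycin WT (adjusted p = 0.779). Ckb, the brain-type creatine kinase, read 74.4, 119, 40.5 and 62.4 against 49.1, 47.0, 59.1 and 5.33 (adjusted p = 0.578). Neither gene's groups separated. By the naming rule the list's other entries were Gamt, which methylates guanidinoacetate to creatine (log2 fold change -1.28, adjusted p = 0.397), and Ckm, the muscle creatine kinase (-2.36, adjusted p = 0.516). Slc16a12, another creatine carrier, was at or under 2.62 CPM in all 12 libraries and was not tested.

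Of the other carriers in this class, Slc6a6 imports taurine and had 76.4, 54, 129 and 115 CPM in saline WT, 140, 507, 185 and 69.3 in bleomycin WT, with 322, 203, 103 and 146 in bleomycin KO. Its log2 fold change after bleomycin was 1.23 with an adjusted p of 0.356, and 1.35 with 0.285 in the 10 libraries. Slc5a3, which imports myo-inositol with sodium, read 56.7, 54, 26.7 and 54.6 CPM in saline WT and 26.3, 26.6, 22.2 and 73.2 in bleomycin WT (adjusted p = 0.818). Its bleomycin WT libraries 1 to 3 lay below all saline libraries, and bleomycin WT 4 above them. In the 10 libraries Slc5a3 was lower at an unadjusted p under 0.05 by edgeR, without being called.

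Slc36a2 is a proton-coupled carrier of glycine, proline and alanine (chr11:55158470-55185077, minus strand). It read 2.19, 0, 1.23 and 6.66 CPM in saline WT, 42.7, 81.4, 74.7 and 7.29 in bleomycin WT, with 57.2, 49.0, 56.3 and 45.3 in bleomycin KO. Every bleomycin library exceeded every saline library, although bleomycin WT 4 did so narrowly. The mean was 2.52 ± 2.90 CPM in saline WT, 51.5 ± 34.0 in bleomycin WT, with 52.0 ± 5.75 in bleomycin KO (SD, n = 4). The fitted log2 fold change after bleomycin was 4.00 (SE 0.85), and 4.28 (SE 0.58) in the 10 libraries, and it was 5.02 without saline WT 4. Between the genotypes after bleomycin the log2 fold change was 0.01 (95% interval -1.49 to 1.51, unadjusted p = 0.99) in 12 libraries and -0.34 (-1.36 to 0.68) in 10.

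**Figure D3:**
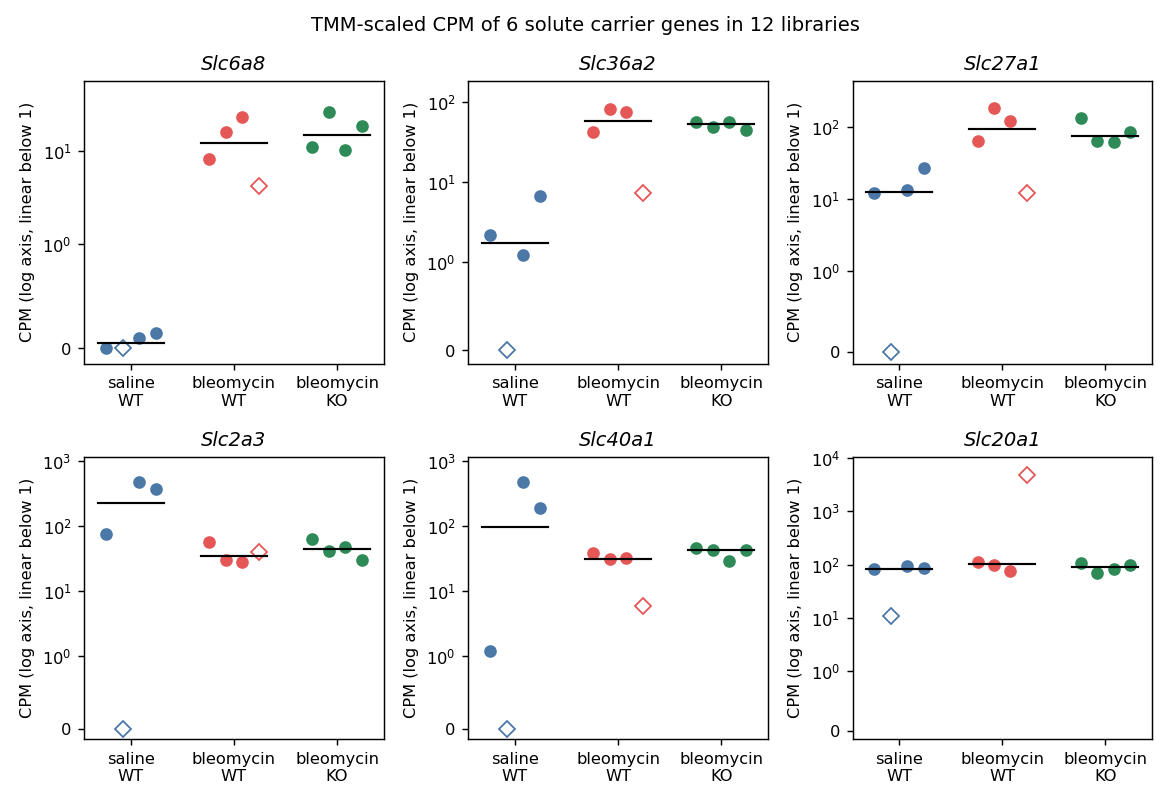
TMM-scaled CPM of 6 genes in each of the 12 libraries (points; axis logarithmic above 1 and linear below), by group, with the group median as a black line; open diamonds mark saline WT 2 and bleomycin WT 4. Slc6a8, Slc36a2 and Slc27a1 are higher in bleomycin WT 1 to 3 and all bleomycin KO libraries than in saline, Slc2a3 is higher in saline WT 3 and 4 (468 and 375 CPM), Slc40a1 spans 0 to 476 CPM in saline, and Slc20a1 stands at 4878 CPM in bleomycin WT 4 alone.

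Slc36a2 shares sequence with its neighbour Slc36a1, a lysosomal carrier of the same family, so reads can be misassigned between them. The 88 shared 50-base stretches, 2.75% of those of Slc36a2, all fall in a single run of 137 bases of coding sequence, bases 1205 to 1341 of the 1434 in the Slc36a2 reading frame and 1196 to 1332 of the 1425 in that of Slc36a1, by GENCODE's GRCm38 transcripts. It is shown because a 50-base read from it fits either gene.

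Slc36a2 and Slc36a1, shared run: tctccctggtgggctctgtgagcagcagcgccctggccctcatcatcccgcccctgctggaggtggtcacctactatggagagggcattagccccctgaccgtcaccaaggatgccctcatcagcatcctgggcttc

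Slc36a1 read 1.46, 21.6, 3.18 and 2.17 CPM in saline WT, where the 21.6 comes from the shallow library, 10.2, 22.7, 11.2 and 11.7 in bleomycin WT, with 20.7, 2.18, 4.87 and 15 in bleomycin KO. Its log2 fold change was 1.96 (adjusted p = 0.384), and 2.65 (adjusted p = 0.203) in the 10 libraries. Slc36a4, another member of the family, read 64.0, 10.8, 30.0 and 25.1 CPM in saline WT and 71.2, 115, 70.4 and 31.8 in bleomycin WT (adjusted p = 0.390). In bleomycin KO it read 101, 86.7, 75.8 and 89.7. Both were named after their values were seen.

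Slc27a1, a fatty acid transport protein that also activates fatty acids to their coenzyme A esters, was the third gene edgeR called without the 2 libraries (chr8:71568882-71587302, plus strand). It read 11.9, 0, 13.4 and 26.9 CPM in saline WT, 63.5, 181, 121 and 12.3 in bleomycin WT, with 132, 63.0, 60.3 and 84.9 in bleomycin KO. Bleomycin WT 4, at 12.3, fell among the saline values; the other 7 bleomycin libraries lay above them. The log2 fold change was 2.78 (SE 0.48, adjusted p = 0.0433, edgeR) in the 10 libraries and 2.62 (SE 0.77, adjusted p = 0.219) in 12. In all 12 libraries DESeq2 (adjusted p = 0.0313) and the edgeR fit without a low-count filter (0.0248) called Slc27a1 higher, and limma-voom did not (0.0695). Between the genotypes after bleomycin the log2 fold change of Slc27a1 was -0.15 (95% interval -1.65 to 1.34) in 12 libraries and -0.51 in 10. Slc27a4, the other named carrier of fatty acids, read 42.8, 0, 63.1 and 50.0 CPM in saline WT and 16.8, 34.6, 15.1 and 2.13 in bleomycin WT (-1.30, adjusted p = 0.475).

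Promoter windows were searched to see what the genes share besides their name. RefSeq windows (GRCm38.p6, 250 bases before to 50 after each start) matched 122 of the 165 genes, with 160 windows, and did not include Slc6a8 or Slc36a2. The 4 motifs searched on both strands were CACGTG, the core bound by Tfeb and its relatives, TTC and GAA 4 bases apart, as known for Stat6, TGANTCA of AP-1, and TGACNNNGC of Nrf2; the last 2 can share bases. CACGTG occurred in 16.2% of the 160 windows, 7.15% of all 32851 windows and 9.51% of the 14094 windows of genes tested. In the same order the pair TTC and GAA occurred in 5.0%, 6.95% and 5.52%, TGANTCA in 5.62%, 7.81% and 5.47%, and TGACNNNGC in 32 of the 160 windows, 12.4% and 14.3%. A match is a run of letters, not a shown binding site. Slc27a1 has 3 windows in the table, of which 1 holds CACGTG and is shown. Below are the 250 bases before that start of Slc27a1 (chr8:71570344-71570593, plus strand) and of Slc33a1, the acetyl-CoA carrier of the endoplasmic reticulum (chr3:63964734-63964983, minus strand), with the match in capitals, 202 and 125 bases before the start.

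Slc27a1: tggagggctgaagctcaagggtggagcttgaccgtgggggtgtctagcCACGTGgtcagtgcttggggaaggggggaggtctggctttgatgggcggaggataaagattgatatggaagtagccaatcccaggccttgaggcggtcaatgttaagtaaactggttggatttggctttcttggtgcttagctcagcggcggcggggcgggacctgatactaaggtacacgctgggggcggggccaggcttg
Slc33a1: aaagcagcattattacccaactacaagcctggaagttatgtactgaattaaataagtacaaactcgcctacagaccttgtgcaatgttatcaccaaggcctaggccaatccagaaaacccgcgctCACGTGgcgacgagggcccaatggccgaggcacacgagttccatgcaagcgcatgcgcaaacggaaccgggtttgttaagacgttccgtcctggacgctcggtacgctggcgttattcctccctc

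Slc33a1 read 22.4, 0, 15.1 and 16.9 CPM in saline WT, 31.5, 38.0, 36 and 151 in bleomycin WT, with 31.0, 40.7, 41.7 and 23.0 in bleomycin KO. All bleomycin libraries lay above all saline ones, yet the adjusted p was 0.242, and 0.270 in the 10 libraries. Its exons overlap those of Gm26850 by 1136 bases, and reads of the 2 genes cannot be told apart there without strand information.

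Among the 23 amino acid carriers, 19 had a positive log2 fold change after bleomycin in the 12-library fit and 17 in the 10-library fit, where 52.9% and 44.1% of all genes tested did. The threshold on summed counts leaned towards such signs and all genes tested did not pass it, so these shares are not alike. Of the 23, edgeR called 1, Slc36a2, in the 10-library fit alone, and DESeq2 and limma-voom called Slc36a2 and Slc1a2 in 12 libraries. Slc3a2 read 370, 119, 528 and 495 CPM in saline WT, 512, 876, 418 and 1095 in bleomycin WT, with 677, 592, 451 and 561 in bleomycin KO (log2 fold change 0.92, adjusted p = 0.377). Slc38a2, a sodium-coupled importer of neutral amino acids, stood at 355, 108, 713 and 399, then 360, 554, 301 and 1051, then 501, 437, 293 and 388 CPM (0.51, adjusted p = 0.687). The groups of both genes overlapped, and bleomycin WT 4 held the highest value of each. Slc1a2 was lower after bleomycin without overlap: 9.49, 43.2, 9.94 and 25.5 CPM in saline WT, 4.89, 2.04, 3.0 and 1.42 in bleomycin WT, with 5.40, 2.97, 2.63 and 5.01 in bleomycin KO. Its log2 fold change was -2.79 with an adjusted p of 0.219 by edgeR, and it was called lower by DESeq2 and by limma-voom with quality weights.

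The light chains that pair with Slc3a2 were named after their values were seen. Slc7a7, which exports cationic amino acids, read 41.6, 0, 35.2 and 24.9 CPM in saline WT, 48.7, 82.5, 72.3 and 24.5 in bleomycin WT, with 68.6, 83.7, 67.7 and 37.4 in bleomycin KO (log2 fold change 1.0, adjusted p = 0.476). Slc7a5, the large neutral amino acid exchanger, read 10.5, 0, 16 and 20.7, then 37.1, 78.3, 22.2 and 3.38, then 51.5, 24.4, 8.12 and 30.8 CPM (1.36, adjusted p = 0.474). Slc7a11, the cystine importer, read 81.7, 0, 520 and 170, then 115, 98.1, 121 and 136, then 182, 122, 107 and 76.9 CPM (-0.76, adjusted p = 0.673). Slc7a2, an importer of arginine that works without Slc3a2, read 52.8, 0, 109 and 34.2 CPM in saline WT and 112, 207, 110 and 89.2 in bleomycin WT (1.28, adjusted p = 0.378). For Slc7a5 and Slc7a7, bleomycin WT 1 to 3 lay above all saline libraries and bleomycin WT 4 did not. At an unadjusted p under 0.05 by edgeR in the 10 libraries, Slc7a2, Slc7a5 and Slc7a7 were higher and Slc7a11 lower after bleomycin. None of them was called, and 6.49% of all genes tested were higher and 7.56% lower at that level.

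The partners of these carriers were followed in lists. Of 24 tested genes of lysosomal amino acid sensing, the machinery that reports amino acids to mTORC1, 0 were called in 12 or in 10 libraries, 6 were higher at an unadjusted p under 0.05 in each fit and 0 lower, where 8.47% and 6.49% of all genes tested were higher and 6.19% and 7.56% lower. Fnip2, a folliculin partner, read 15.1, 0, 15.4 and 12.6 CPM in saline WT, 39.8, 78, 61.9 and 25.9 in bleomycin WT, with 64.6, 46.9, 29.1 and 36.7 in bleomycin KO. These groups did not overlap, and the adjusted p was 0.225 in 12 libraries and 0.0518 in 10. Rragc, a Rag GTPase, read 155, 54, 151 and 160 CPM against 206, 349, 219 and 825 (adjusted p = 0.229). Of the 4 tested partner subunits none was called: Bsg had a log2 fold change of 0.73 (adjusted p = 0.438) and Emb of 0.69 (adjusted p = 0.599).

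The 11 carriers of sugars and sugar phosphates had 9 positive and 2 negative log2 fold changes in the 12-library edgeR fit, and 8 and 3 in the 10-library fit. Of all genes tested, which did not have to pass the threshold on summed counts, 52.9% and 44.1% were positive. Neither fit called any of the 11. Slc2a3, a high-affinity glucose transporter abundant in neutrophils, read 74.2, 0, 468 and 375 CPM in saline WT, 56.6, 30.1, 27.5 and 40.2 in bleomycin WT, with 64.0, 40.8, 47.5 and 29.9 in bleomycin KO. Apart from the shallow library with its 0, all saline values lay above all bleomycin values. The log2 fold change was -2.61 (SE 0.83, adjusted p = 0.227, edgeR), -3.01 (SE 0.60, adjusted p = 0.0618) in the 10 libraries, and DESeq2, limma-voom and the fit without a low-count filter called it lower. Without saline WT 3 it was -1.91. Its high libraries, saline WT 3 and 4, were also those with the neutrophil sums of 28882 and 18209 CPM given above. The alveolar macrophage list had its highest saline sums there too, 4122 and 2502 CPM. The part of either cell type was not tested.

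Slc2a1, the widespread basal glucose transporter, read 8.27, 0, 190 and 139 CPM in saline WT, 97.3, 226, 116 and 65.6 in bleomycin WT, with 165, 95.5, 106 and 103 in bleomycin KO (log2 fold change 0.49, adjusted p = 0.825). Slc37a2, a glucose-6-phosphate exchanger of the endoplasmic reticulum known from macrophages and named after its values were seen, read 90.2, 0, 36.3 and 55.9 CPM in saline WT, 143, 264, 274 and 22.6 in bleomycin WT, with 178, 149, 179 and 135 in bleomycin KO. It was higher in 7 of the 8 bleomycin libraries than in any saline library, with bleomycin WT 4 as the exception. Its log2 fold change was 1.82 (adjusted p = 0.286), and 1.87 (SE 0.36, adjusted p = 0.0592) in the 10 libraries; limma-voom called it higher in 12. Slc45a4, a proton-coupled carrier of the sucrose transporter family, stood at 3.65, 0, 3.08 and 10.7 CPM in saline WT, 27.0, 26.3, 18.7 and 128 in bleomycin WT, with 18.2, 31.6, 16.6 and 8.09 in bleomycin KO. All bleomycin WT libraries lay above saline (3.21, adjusted p = 0.206; 2.02, adjusted p = 0.190 in 10 libraries), and DESeq2 and the fit without a low-count filter called it. Its value was 2.24 without bleomycin WT 4 and 4.01 without saline WT 4. Slc50a1, the most abundant of the class, read 42.1 to 69.6 CPM in saline WT other than the shallow library and 38.0 to 108 in bleomycin WT (adjusted p = 0.759).

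Among carboxylate carriers, Slc16a3 exports lactate from glycolytic cells. It read 129, 97.3, 1069 and 827 CPM in saline WT, 125, 181, 123 and 29.7 in bleomycin WT, with 196, 132, 110 and 99.1 in bleomycin KO. The high values again lay in saline WT 3 and 4, the saline libraries with the higher neutrophil and alveolar macrophage sums. Saline WT 1 and 2 fell among the bleomycin values. The log2 fold change was -2.22 (SE 0.73, adjusted p = 0.232), and -2.25 (adjusted p = 0.138) in the 10 libraries, and it was -1.51 without saline WT 3. DESeq2 (adjusted p = 0.0333), limma-voom (0.0272) and the fit without a low-count filter (0.0298) called Slc16a3 lower. Slc44a2, a choline transporter-like protein that neutrophils also carry, had the same pattern in saline WT, with 103, 86.5, 388 and 339 CPM, and read 46.6 to 176 in bleomycin WT (-1.09, adjusted p = 0.373). Slc16a13, a monocarboxylate carrier, was listed at 0, 0, 3.18 and 0 CPM in saline WT and read 7.19, 13.3, 5.44 and 1.24 in bleomycin WT, with 9.92, 5.87, 5.88 and 11.4 in bleomycin KO (adjusted p = 0.353).

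None of the 27 metal and haem carriers was called by edgeR in 12 or 10 libraries; DESeq2 called Slc30a1, and the fit without a low-count filter Slc39a1 and Slc40a1. Slc11a1 read 293, 141, 499 and 303 CPM in saline WT, 174, 333, 324 and 188 in bleomycin WT, with 291, 226, 243 and 248 in bleomycin KO (log2 fold change -0.30, adjusted p = 0.802). Slc48a1, which carries haem out of the phagolysosome, read 118, 313, 153 and 107 CPM, then 184, 229, 270 and 60.8, then 177, 197, 176 and 177. In the 10 libraries all bleomycin values of Slc48a1 lay above all saline values, with a log2 fold change of 0.83 (SE 0.21, adjusted p = 0.126). In 12 libraries it was 0.15 (95% interval -0.93 to 1.23), and its sign turned with DESeq2's size factors. Slc40a1, ferroportin, the cell's iron exporter, read 1.22, 0, 476 and 191 CPM in saline WT, 38.8, 31.5, 32.5 and 6.04 in bleomycin WT, with 46.4, 43.8, 28.9 and 42.6 in bleomycin KO. Its saline libraries spanned the bleomycin range on both sides (-2.66, adjusted p = 0.307), and its high libraries were again saline WT 3 and 4.

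Of the zinc carriers named by p, bleomycin WT 4 held the highest value of each. Slc30a1, the zinc exporter of the plasma membrane, read 1.46, 0, 5.84 and 1.74 CPM in saline WT, 17.5, 16.9, 9.49 and 76.2 in bleomycin WT, with 14.6, 6.86, 3.71 and 5.01 in bleomycin KO. Its bleomycin WT libraries lay above saline without overlap (log2 fold change 3.37, adjusted p = 0.217; 2.24, adjusted p = 0.227 in 10 libraries). Its value was 2.39 without bleomycin WT 4 and 4.37 without saline WT 3. Slc39a1, a zinc importer, read 15.6, 0, 1.54 and 2.32, then 4.89, 7.72, 5.36 and 208, then 8.29, 2.57, 4.41 and 6.95 CPM, and its log2 fold change went from 3.26 in 12 libraries to -0.15 in 10. Metallothioneins bind zinc and copper and are induced by them, and none of the 3 tested genes of that list was called. Mt1 read 249 to 676 CPM in saline WT, 444 to 938 in bleomycin WT, with 489 to 774 in bleomycin KO (adjusted p = 0.597), and Mt2 had an adjusted p of 0.943.

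Copper carriers were named after their values were seen. Slc31a1, the high-affinity copper importer, read 34.5, 0, 86.8 and 40.8 CPM in saline WT, 92.4, 101, 162 and 17.6 in bleomycin WT, with 109, 109, 115 and 102 in bleomycin KO. Of the bleomycin libraries only bleomycin WT 4 fell below the highest saline value, and the log2 fold change was 1.11 (SE 0.35, adjusted p = 0.203) in the 10 libraries and 1.06 (adjusted p = 0.491) in 12. Slc31a2, its relative of intracellular membranes, read 79.4 to 114 CPM in saline WT other than the shallow library, 94.5 to 168 in bleomycin WT, with 119 to 188 in bleomycin KO (adjusted p = 0.634).

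Of 19 tested genes of iron handling, 0 were called by edgeR, and 1 was higher and 2 were lower at an unadjusted p under 0.05, where 8.47% and 6.19% of all genes were. In the 10 libraries 2 of 20 were higher and 3 lower (against 6.49% and 7.56% of all genes), and the list's median log2 fold change went from 0.20 to -0.03. Cd163, the haemoglobin scavenger receptor of resident macrophages, read 154, 151, 66.5 and 163 CPM in saline WT, 22.1, 20.2, 29.6 and 6.04 in bleomycin WT, with 15.1, 103, 43.9 and 146 in bleomycin KO. Its bleomycin WT values lay below all saline values (log2 fold change -2.77, adjusted p = 0.201), whereas the KO values spanned both ranges. Ireb2, which represses ferritin translation when iron is low, read 272 CPM in bleomycin WT 4 and 28.6 to 41.4 in the other bleomycin WT libraries (adjusted p = 0.254). Ferritin heavy chain Fth1 read 3221 to 6393 CPM in saline WT and 2194 to 7345 in bleomycin WT (adjusted p = 0.844).

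Among the 5 carriers of nucleosides and nucleotides, Slc29a1, the equilibrative nucleoside transporter of the plasma membrane, was the most abundant at 78.4 CPM per kb. It read 37.9, 21.6, 189 and 290 CPM in saline WT, 217, 271, 185 and 440 in bleomycin WT, with 234, 237, 200 and 152 in bleomycin KO (adjusted p = 0.473). Slc29a3, its lysosomal relative, read 3.89, 64.9, 32 and 46.3, then 68.0, 208, 73.4 and 52.2, then 146, 54.3, 82.6 and 85.3 CPM (1.59, adjusted p = 0.338). Slc17a9, which loads ATP into vesicles, was listed at 0, 0, 0.820 and 0.434 CPM in saline WT and read 8.39, 5.75, 4.46 and 0.355 in bleomycin WT, with 7.35, 13.1, 5.73 and 6.38 in bleomycin KO. Without bleomycin WT 4 the groups of Slc17a9 did not overlap, and the log2 fold change was 3.73 (SE 0.93, adjusted p = 0.118) in the 10 libraries and 3.40 (adjusted p = 0.239) in 12. DESeq2 called Slc17a9 higher in bleomycin KO than in saline WT. Slc28a2, a concentrative purine nucleoside importer named after its values were seen, went the other way, with 58.6, 0, 62.5 and 57.9 CPM in saline WT and 18.1, 27.9, 29.2 and 0.533 in bleomycin WT (adjusted p = 0.490, and 0.145 in 10 libraries).

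Of the nucleotide sugar carriers, which supply the Golgi and endoplasmic reticulum, none was called. Slc35a4 read 82.0, 64.9, 69.8 and 86.2 CPM in saline WT, 60.0, 133, 77.7 and 93.8 in bleomycin WT, with 98.8, 75.3, 70.6 and 95.4 in bleomycin KO (log2 fold change 0.26, 95% interval -0.70 to 1.21). Slc35a1, which carries CMP-sialic acid, read 1.22, 0, 17 and 21.9, then 31.3, 22.6, 41.6 and 0.533, then 27.9, 33.1, 44.3 and 45.5 CPM (adjusted p = 0.661). Slc17a5, the lysosomal exporter of sialic acid, read 22.6, 0, 26.3 and 25.6 CPM in saline WT, 42.0, 55.2, 63.9 and 182 in bleomycin WT, with 45.8, 35.4, 35.0 and 55 in bleomycin KO. All 8 bleomycin libraries lay above all saline libraries for Slc17a5 (2.00, adjusted p = 0.232; 1.09, SE 0.30, adjusted p = 0.151 in 10 libraries).

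Of the ion carriers, Slc12a4, a potassium-chloride cotransporter, read 5.59, 10.8, 30.4 and 8.40 CPM in saline WT, 26, 111, 51.9 and 83.3 in bleomycin WT, with 70.8, 55.7, 44.5 and 41.9 in bleomycin KO. Bleomycin WT 1 alone overlapped the saline range (log2 fold change 2.24, SE 0.68, adjusted p = 0.219), and DESeq2 called it. Without saline WT 3, its highest saline library, the value was 3.30. Slc34a2 read 80.7, 43.2, 28.8 and 70.8 CPM in saline WT, 9.89, 5.68, 3.90 and 0 in bleomycin WT, with 17.4, 0, 1.93 and 0.342 in bleomycin KO, so every saline library lay above every bleomycin library. The fit gave -3.53 (SE 1.42, adjusted p = 0.284), and the fit without a low-count filter called it. It was chosen after its values were seen. It is a defining transporter of alveolar type II cells, and the epithelial list sums given above were lower in all bleomycin libraries than in saline. Within saline WT that sum and Slc34a2 were both highest in library 1 and lowest in library 3. Within bleomycin WT the sum was highest in library 4 (874 CPM), where Slc34a2 read 0. The part of those cells was not tested.

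Mitochondrial carriers were the largest class, with 31 genes and none called. Of these, 22 had a positive log2 fold change in 12 libraries and 20 in 10. Of all genes tested, without the threshold on summed counts, 52.9% and 44.1% did. The class median went from 0.75 to 0.24. Slc25a3 read 80.5, 32.4, 256 and 216 CPM in saline WT, 196, 262, 202 and 399 in bleomycin WT, with 222, 203, 224 and 216 in bleomycin KO (0.81, adjusted p = 0.486). Slc25a5 read 131, 10.8, 159 and 126, then 163, 111, 178 and 736, then 135, 185, 164 and 158 CPM, and its log2 fold change went from 1.41 in 12 libraries to 0.10 in 10. Of the 4 genes that are not transporters, the scaffold Slc9a3r2, abundant in endothelium, read 115, 0, 43.5 and 20.4 CPM in saline WT and 10.1, 18.3, 5.19 and 3.38 in bleomycin WT (-2.37, adjusted p = 0.252; -1.41 without saline WT 1), and DESeq2 called it lower. The endothelial sums given above were lower in bleomycin WT 1 to 3 as well, but highest in bleomycin WT 4 (708 CPM), where Slc9a3r2 read 3.38. Within saline WT that sum was highest in library 3 (431 CPM) and Slc9a3r2 in library 1. The part of those cells in this result was not tested.

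The remaining named genes were not called either. Slc15a3 and Slc15a4, which carry peptides and histidine out of the endolysosome, read 42.1, 32.4, 100 and 98.2 CPM and 122, 10.8, 64.5 and 32.9 in saline WT, and 61.6, 129, 75.9 and 71.6 and 78.9, 121, 80.3 and 16.5 in bleomycin WT (adjusted p = 0.864 and 0.884). Slc23a2, an ascorbate importer, read 105, 0, 48.8 and 69.7 CPM in saline WT and 66.9, 154, 79.1 and 6.40 in bleomycin WT (adjusted p = 0.881). Slc14a1, a urea channel of endothelium and red cells, stood at 58.1 CPM in saline WT 1 and at most 11.4 in the other 11 libraries (adjusted p = 0.512). The log2 fold changes of Slc16a6, Slc26a10, Slc35a5, Slc10a3 and Slc46a3 lay between -0.59 and 0.50, each with an adjusted p of 0.728 or more.

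**Figure D4:**
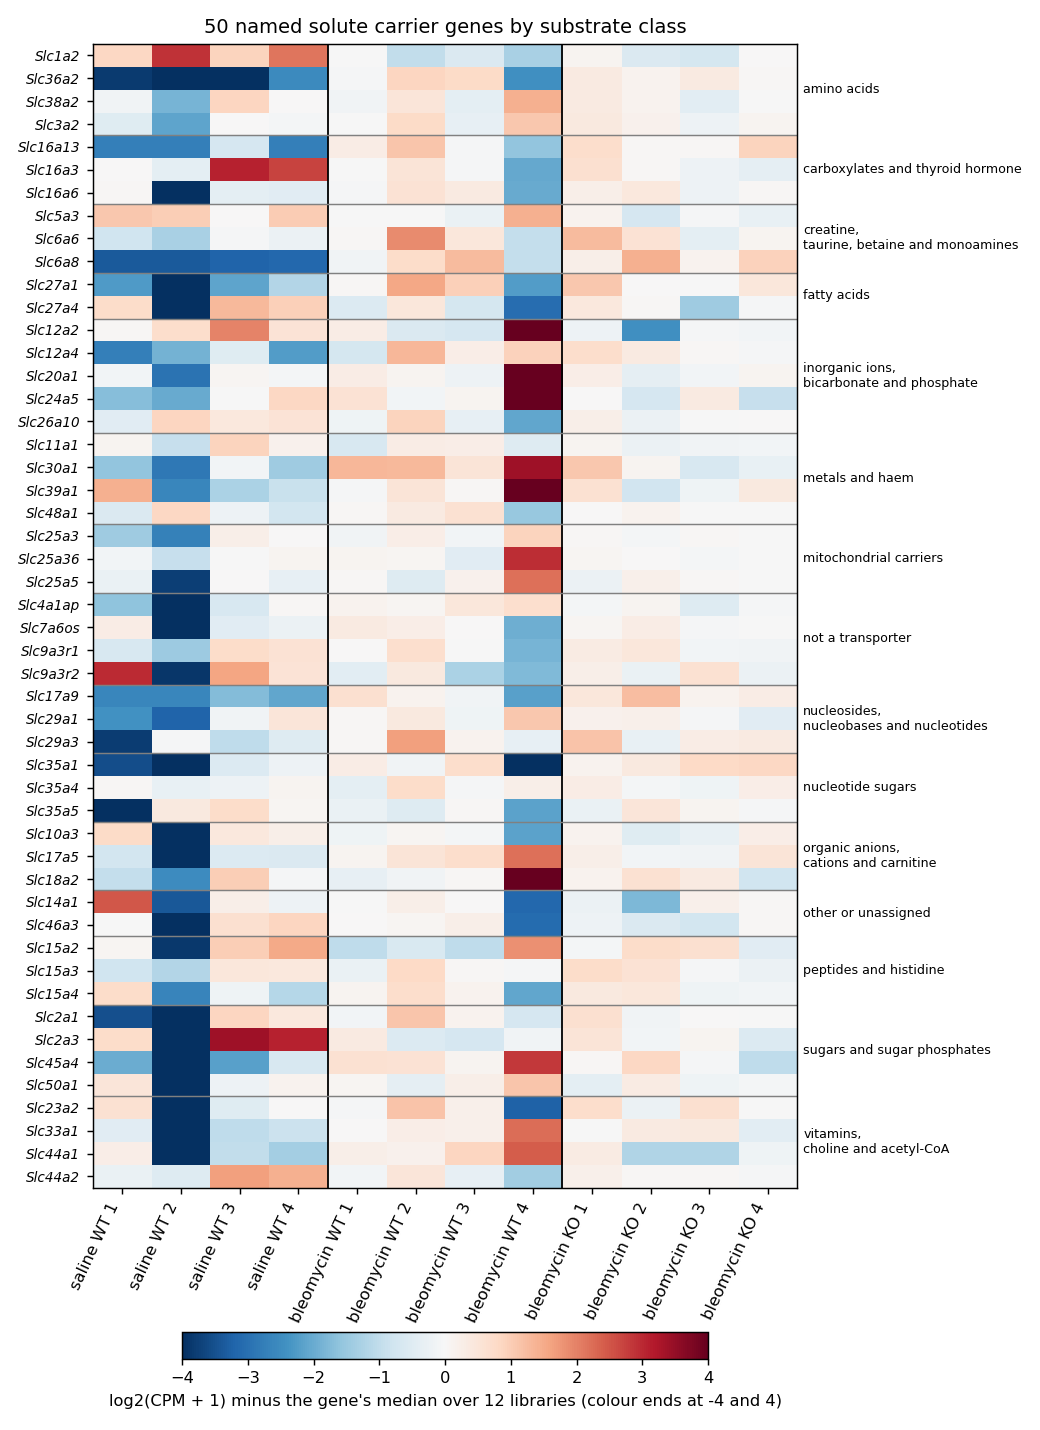
Log2(CPM + 1) of the 50 genes chosen by the naming rule, less each gene's median over the 12 libraries (colour, limited to -4 to 4), by library (columns, black lines between groups) and substrate class (rows, grey lines). Saline WT 2 is low across most rows, bleomycin WT 4 holds the darkest reds (Slc20a1, Slc24a5, Slc39a1, Slc18a2 and Slc12a2), and the rows Slc6a8 and Slc36a2 are blue in all 4 saline columns.

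Counted by library, the groups did not overlap for 12 genes in 12 libraries. The 10 higher after bleomycin (6.06%, against 4.93% of all genes tested) were Slc36a2, Slc6a8, Slc4a7, Slc30a1, Slc39a11, Slc25a4, Slc4a1ap, Slc17a5, Slc45a4 and Slc33a1, and the 2 lower (1.21%, against 0.929%) were Slc1a2 and Slc34a2. In the 10 libraries 36 were higher without overlap (21.8%, against 11.2%) and 13 lower (7.88%, against 9.43%). The shares in 12 libraries stood near those of all genes.

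The second comparison, bleomycin KO against bleomycin WT, asks what the deletion changes after bleomycin. No solute carrier was called, and 0% of all genes tested were, by edgeR with its low-count filter in 12 or 10 libraries, by DESeq2 or by limma-voom. Without that filter edgeR called 3 carriers lower in the 12 libraries, Slc18a2, Slc20a1 and Slc24a5, where it called 0.596% of all genes. The median log2 fold change was 0.04 over the 165 genes and -0.01 over all genes, and -0.10 and -0.02 in the 10 libraries. At an unadjusted p under 0.05, 7 genes were lower in the 12-library fit (4.24%, against 3.69% of all genes) and 0 higher (against 0.186%). They were Slc12a2, Slc20a1, Slc24a5, Slc30a1, Slc39a1, Slc18a2 and Slc44a1, and bleomycin WT 4 held the highest value of each among all 12 libraries. In the 10 libraries 0 of them remained at that level, and a single gene, Slc15a2, was higher in KO (0.606%, against 0.255% of all genes higher and 0.664% lower).

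Slc20a1, a sodium-phosphate cotransporter, shows the pattern most plainly (chr2:129198764-129211616, plus strand). Its exons overlap those of 9830144P21Rik by 315 bases and of Gm4430 by 229, and 9.46% of its 50-base stretches also occur in these genes. Slc20a1 read 110, 98.3, 77.7 and 4878 CPM in bleomycin WT, with 108, 70.7, 83.0 and 97.1 in bleomycin KO, beside 83.2, 10.8, 96.3 and 84.9 in saline WT. Between the genotypes this gave a log2 fold change of -3.85 (SE 1.15, adjusted p = 0.934) with bleomycin WT 4 and -0.08 (95% interval -0.56 to 0.40) in the 10 libraries. Slc24a5, a sodium-calcium exchanger of pigment cells, read 4.99, 2.72, 3.33 and 327 CPM in bleomycin WT, with 3.08, 1.52, 4.18 and 1.14 in bleomycin KO, and 714 bases of its exons overlap those of Myef2. Slc18a2, the vesicular monoamine transporter, read 3.5, 4.20, 4.87 and 301 against 5.27, 7.71, 6.27 and 2.28 CPM. Slc44a1, a choline transporter, read 46.2, 44.5, 73.0 and 214 against 50.2, 16.7, 16.4 and 34.9 CPM, and its log2 fold change in the 10 libraries was -0.88 (95% interval -2.02 to 0.25). Slc12a2, a sodium-potassium-chloride cotransporter, read 7.99, 3.89, 3.57 and 130 against 5.40, 0.330, 6.03 and 5.81 CPM.

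Bleomycin WT 4 differed from its group across the family. It held the highest value of the 12 libraries for 36 of the 165 genes (21.8%, against 23.2% of all genes tested) and the lowest of the 11 libraries other than saline WT 2 for 70 (42.4%, against 28.6%). The share of highest values thus stood near that of all genes. Bleomycin WT 2 held the highest value for more of the 165, namely 47 (28.5%, against 9.63% of all genes tested). For 8 genes bleomycin WT 4 exceeded every other library more than 5-fold (4.85%, against 4.30%): Slc16a10, Slc20a1, Slc24a5, Slc39a1, Slc25a36, Slc18a2, Slc37a3 and Slc5a2. In the list of lysosomal amino acid sensing, Fnip1 read 1378 CPM there against 60.9 to 70.4 in the other bleomycin WT libraries, and Mitf 573 against 24.9 to 46.7. Both are given outside the naming rule. Of the genes of that list named by the rule, bleomycin WT 4 was the highest of its group for Rragc and the lowest for Fnip2. The rest of the list was not counted in this way.

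**Figure D5:**
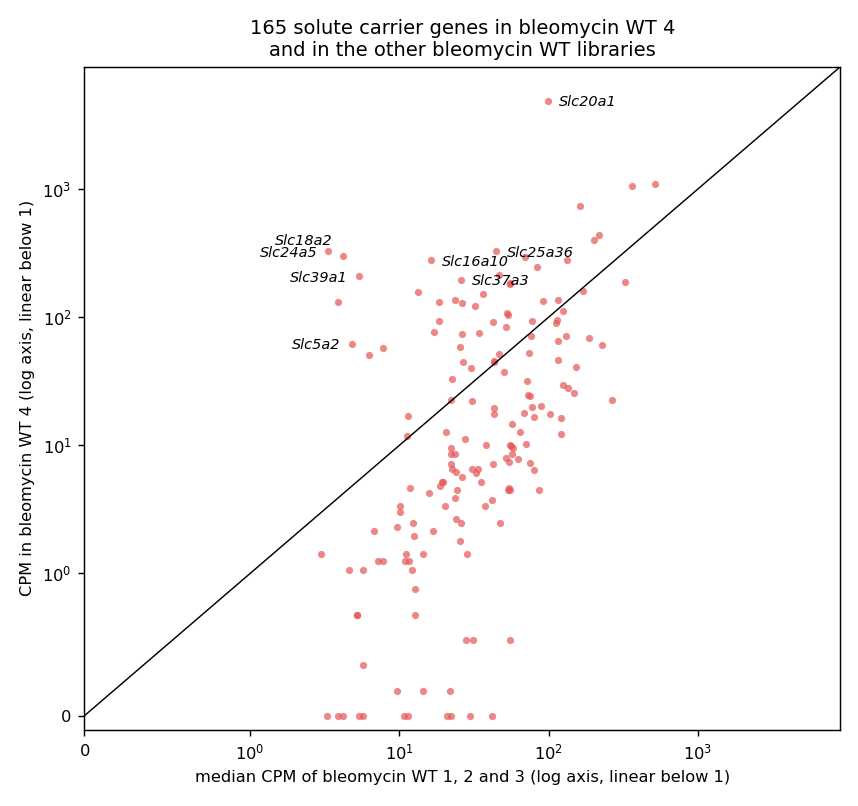
CPM of each of the 165 genes in bleomycin WT 4 against the median of bleomycin WT 1, 2 and 3 (points; both axes logarithmic above 1 and linear below; the line marks equality). The 8 named genes exceed all other 11 libraries more than 5-fold, with Slc20a1 at 4878 CPM, and 11 genes lie at 0 in bleomycin WT 4.

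Slc15a2, a proton-coupled importer of small peptides, was the single carrier with an unadjusted p under 0.05 between the genotypes in the 10 libraries. It read 6.29, 8.65 and 6.25 CPM in bleomycin WT 1 to 3, 50.6 in bleomycin WT 4, then 13.0, 23.5, 22.0 and 9.80 in bleomycin KO, beside 14.3, 0, 28.2 and 41.3 in saline WT. Its log2 fold change was 1.28 (SE 0.47, unadjusted p = 0.021) in the 10 libraries and -0.07 in 12, and limma-voom with quality weights placed it lower in bleomycin WT than in saline WT. Slc30a7, a zinc carrier of the Golgi, was the 1 gene whose genotypes did not overlap in 12 libraries (0.606%, against 0.905% of all genes for higher and 0.594% for lower). It read 93.3, 89.0, 80.5 and 20.3 CPM in bleomycin WT, with 106, 108, 113 and 124 in bleomycin KO (log2 fold change 0.67, 95% interval -0.41 to 1.75). Its exons overlap those of Gm6649 by 1165 bases and of Gm43106 by 637, and 15.3% of its 50-base stretches occur in other genes. In the 10 libraries 3 genes were higher in KO without overlap (1.82%, against 1.37%), namely Slc30a7, Slc39a10 and Slc15a2, and 1 lower (0.606%, against 1.81%), Slc25a38.

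The third comparison, bleomycin KO against saline WT, shares its saline libraries with the first, so its values stand beside those rather than in support of them. It called 1 gene, Slc6a8 (0.606%, against 0.0180% of all genes tested), and 2 in the 10 libraries, Slc6a8 and Slc36a2 (1.21%, against 0.643%). These 2 were picked for their rise after bleomycin, so the calls are again a description. The fitted log2 fold change of Slc6a8, which depends on the prior count because saline held 2 reads, was 7.30, that of Slc36a2 4.01 and that of Slc27a1 2.46 (adjusted p = 0.326), where bleomycin WT against saline WT gave 6.95, 4.00 and 2.62. Groups did not overlap for 20 genes higher in bleomycin KO (12.1%, against 8.17%) and 3 lower (1.82%, against 1.04%), the latter being Slc1a2, Slc12a2 and Slc34a2. In the 10 libraries there were 23 higher (13.9%, against 8.38%) and 9 lower (5.45%, against 7.80%). At an unadjusted p under 0.05, 10 were higher (6.06%, against 2.96%) and 4 lower (2.42%, against 6.07%) in 12 libraries, and 23 higher (13.9%, against 6.35%) and 18 lower (10.9%, against 10.5%) in 10. DESeq2 called 5 carriers (Slc17a9, Slc36a2 and Slc6a8 higher, Slc1a2 and Slc2a3 lower), where it called 2.22% of all genes. The calls of limma-voom, where 1.39% of all genes were called, were Slc36a2 and Slc36a4 higher and Slc1a2 and Slc16a3 lower. The fit without a low-count filter, where 1.70% were called, called Slc6a8, Slc36a2 and Slc27a1 higher and Slc2a3 and Slc34a2 lower.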

How the data were processed

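Libraries were made with a SMART-Seq v4 kit and Nextera XT and read as single-end 50-base reads, per the labels' protocols; the kit does not mark strand. The raw gene counts were deposited by the authors without normalization. The submitters' processing notes name GSNAP, limma, Partek and the builds GRCm38 and mm10, with no versions; the counting rule for shared or overlapping reads is not stated there. CPM, TMM factors and fits were computed here. edgeR 4.0.16 (R 4.3.3) was run with filterByExpr (16679 genes), TMM, robust dispersion and the quasi-likelihood test, with all 12 libraries in 1 fit and Benjamini-Hochberg adjustment over all genes tested at 0.05. Alternatives were DESeq2 1.42.0, limma 3.58.1 voom with quality weights, DESeq2 size factors in place of TMM, no low-count filter, only the 2 groups compared, libraries left out, a replicate block and unscaled CPM. The scripts were tested on simulated counts. Exon overlaps and shared 50-base stretches came from GENCODE vM21 annotation, in which all 165 genes were found. Exons of 46 of the 165 overlapped another gene, and 37 shared 5% or more of their 50-base stretches. Only some of these are marked above. Among the others, Slc28a2 shared 35.4% with Gm14085, and Slc15a3 26.8% with Prps2 and Tmem132a. The members, gene lists, named-gene rule and alternatives were chosen with earlier results of these data known; the class of Slc4a1ap was set after the files were read. Named genes were Slc6a8 and Slc36a2, every gene called in any comparison in 12 or 10 libraries, per class the 2 most abundant per kb and the 2 with the smallest p after bleomycin, the 8 with the smallest p between genotypes, the 3 genes on either side of 600 counts, and 2 genes per partner list. Depth was 60598 to 18051113 counts. No libraries agreed within sampling noise (chi-square per degree of freedom at least 23.9 within groups). Replicate numbers are treated as names.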

Additional observations from a re-analysis of the deposited data

Results flagged for a closer look

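Over the 50 named carriers and 3 groups, 24 of 150 groups of 4 libraries held a library whose gap to its nearest neighbour exceeded Dixon's critical share of the group's range; chance flags about 1 group in 20 where genes are chosen without regard to their values, but many of these 50 were chosen by a small p, so that rate is no yardstick here. Bleomycin WT 4 was the high library in 14 of them: Slc20a1 at 4878 CPM, Slc25a5 at 736, Slc24a5 at 327, Slc25a36 at 326, Slc18a2 at 301, Slc44a1 at 214, Slc39a1 at 208, Slc17a5 at 182, Slc33a1 at 151, Slc12a2 at 130, Slc45a4 at 128, Slc30a1 at 76.2, Slc5a3 at 73.2 and Slc15a2 at 50.6. It was the low library for Slc46a3, at 3.73 CPM.

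In saline WT, library 2 was low for Slc20a1 (10.8 CPM) and Slc17a5 (0 CPM), library 3 was high for Slc16a13 (3.18 CPM, the others at 0) and low for Slc5a3 (26.7 CPM), and library 1 was high for Slc39a1 (15.6 CPM). Bleomycin WT 2 was high for Slc29a3, at 208 CPM. In bleomycin KO, library 2 was high for Slc48a1 (197 CPM) and low for Slc12a2 (0.330 CPM), and library 1 was high for Slc2a1 (165 CPM).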

How the results depend on the processing

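For bleomycin WT against saline WT, where edgeR called 1 carrier, the count was 10 with DESeq2 (2.99% of all genes called), 6 with limma-voom and quality weights (1.91%), 12 without the low-count filter (1.91%), 3 without saline WT 2 and bleomycin WT 4, 0 with DESeq2's size factors, 0 with the 2 groups alone and 0 with the replicate block. It ranged from 0 to 2 when single libraries were left out. For bleomycin KO against saline WT, also 1 carrier, the counts in the same order were 5 (2.22%), 4 (1.39%), 5 (1.70%), 2, 0, 0 and 0, and 0 to 2 over single libraries left out: 2 without bleomycin WT 4, 1 without saline WT 2 and 0 without any of the other 10. For bleomycin KO against bleomycin WT the count was 0, except 3 without the filter (0.596%): Slc18a2, Slc20a1 and Slc24a5, all lower. The cause of these differences was not tested. Same-numbered libraries deviated together at correlations of -0.182 to 0.0528 and none correlated best with its own number, so the replicate numbers were not taken as pairs.

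Of 816 alternatives of 43 log2 fold changes of named carriers, 730 kept direction and side of the threshold, 29 lost the call, 34 gained one and 23 reversed. The reversals after bleomycin in WT were Slc39a1 at -0.15, Slc25a36 at -0.0863 and Slc18a2 at -0.43 in the 10 libraries; Slc25a36 at -0.14, Slc18a2 at -0.44 and Slc15a3 at -0.28 with limma-voom; and, over single libraries left out, Slc35a5 (-0.94 to 0.0247), Slc18a2 (-0.22 to 4.77) and Slc15a2 (-1.67 to 0.0820). Between the genotypes Slc36a2 turned to -0.14 with limma-voom and -0.34 in the 10 libraries and ranged from -0.37 to 0.32 over single libraries left out. Slc25a36 turned to 0.11 and 0.0799 and ranged from -1.71 to 0.0592, and Slc18a2 turned to 0.12 and 0.37 and ranged from -4.23 to 0.35. The cause was not tested. Without TMM scaling, 149 of 150 group means of the named carriers moved by less than 1 SD.

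Depth limits saline WT most: in saline WT 2 the 3-count floor is 32.4 CPM, against 0.185 to 0.730 in the other libraries, and 23 of the 165 carriers had 3 or more counts in all 12 libraries. The common biological coefficient of variation was 0.862, so single-gene differences needed to be large to pass.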
